A study of Mus musculus with 2 samples.

Results

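The immediate early and heat shock genes were followed through 2 single-cell libraries of MRL-lpr kidney. The set held 36 genes of the 31053 listed in both libraries, 31 immediate early genes and 5 heat shock genes, taken by symbol, and every barcode with at least 200 detected genes and at most 20% mitochondrial UMIs was used. A UMI is a molecular tag that marks 1 captured RNA molecule. Levels were compared between cells gated by marker genes as lymphoid, myeloid or tubule, and between the libraries.

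Cells came from pooled kidneys of MRL-lpr mice, which lack functional Fas and develop lupus-like nephritis with age. There was 1 library from old mice and 1 from young mice, all MRL-lpr, so no unaffected strain was part of the comparison. According to the methods, kidneys were digested with enzymes at body temperature, leukocytes were enriched on a density gradient, ILCs were enriched with magnetic beads, and live cells were sorted before droplet capture with 3′ counting. With 1 library per age no test was possible: intervals given below are exact 95% intervals that cover counting error only, and age, batch, digestion and the mice pooled cannot be told apart.

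Immediate early genes are transcribed within minutes of a stimulus, without new protein synthesis, through factors such as SRF with its ELK partners, CREB and NF-κB that are already present in the cell. Many of them encode transcription factors of the AP-1, EGR, KLF and NR4A families, and others encode phosphatases, RNA-decay proteins and inhibitors that shut the response off again. Heat shock genes are driven by HSF1 when unfolded protein builds up, and their products are chaperones. Enzymatic dissociation of tissue is known to induce both groups, as are antigen receptor, cytokine and injury signals, and transcript levels alone do not separate these inputs.

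The young library held 15076 barcodes and 156787812 UMIs and the old library 12622 barcodes and 126334256 UMIs, of which 11429 and 10232 barcodes were kept, with medians of 7881 and 6933 UMIs. Both held more kept barcodes than the number of sorted cells the methods state. The libraries shared 41 barcodes, 26 of them among the kept ones. The methods describe female mice, yet 50.8% of young and 40.6% of old kept cells had UMIs of Y-linked genes and none of *Xist*, the transcript of the silenced X chromosome, while 14.6% and 29.1% had *Xist* without a Y-linked UMI. Results that rest on these fractions are given for both kinds of cell.

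A cell entered a class when it carried a minimum number of the marker genes of that class and fewer than the minimum of every other class. Pairs of values below are in the order young, old. ILC2s, the innate lymphocytes that answer IL-33, numbered 1247 and 296, T cells 548 and 4018, NK cells or ILC1s 151 and 198, B cells 350 and 152, macrophages or monocytes 250 and 359, neutrophils 127 and 113, and cells of the proximal tubule (PT), the segment that reabsorbs most of the filtrate, 5810 and 3203. The names stand for these gates. Sums of the marker lists describe the gated cells and do not check the names, because the same lists set the gates. The T cell list summed to 3343 and 4253 CPM (UMIs per 1000000 UMIs of the class) in T cells. It summed to 2.79 and 6.96 CPM in ILC2s, which the gate required to lack Cd3 UMIs. The ILC2 list summed to 2806 and 3791 CPM in ILC2s and was not absent from T cells, at 609 and 374 CPM. The PT list summed to 6692 and 5342 CPM in PT cells and was not at 0 elsewhere: ILC2s held 285 and 107 CPM, T cells 285 and 117 CPM, and macrophages or monocytes 211 and 64.1 CPM. PT transcripts were thus present at a low level in these immune classes, and at a higher one in the young library.

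To show the regulatory sequence behind the genes that separated the classes, the 250 bases before the transcription start (RefSeq, GRCm38.p6, mouse) are printed for 5 members. *Fos* was among the 3 highest members in ILC2s, *Jun* led the immediate early genes of PT cells, *Cyr61* was far higher in PT cells than in the immune classes, and *Hspa1a* and *Hspa1b* differed between the libraries in opposite directions in different classes. Capitals mark a TATA box (TATAAA) in *Fos* and *Cyr61* and a heat shock element (GAANNTTC) in *Jun*, *Hspa1a* and *Hspa1b*. They lie at chr12:85473640-85473889, + strand, chr4:95052223-95052472, - strand, chr3:145649986-145650235, - strand, chr17:34972157-34972406, - strand and chr17:34959239-34959488, - strand, each written 5′ to 3′ along its gene.

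Fos: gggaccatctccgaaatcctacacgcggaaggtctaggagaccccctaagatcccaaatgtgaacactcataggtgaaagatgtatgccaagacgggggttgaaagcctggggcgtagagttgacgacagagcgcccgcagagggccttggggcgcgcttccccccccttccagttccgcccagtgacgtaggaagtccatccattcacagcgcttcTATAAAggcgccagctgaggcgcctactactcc
Jun: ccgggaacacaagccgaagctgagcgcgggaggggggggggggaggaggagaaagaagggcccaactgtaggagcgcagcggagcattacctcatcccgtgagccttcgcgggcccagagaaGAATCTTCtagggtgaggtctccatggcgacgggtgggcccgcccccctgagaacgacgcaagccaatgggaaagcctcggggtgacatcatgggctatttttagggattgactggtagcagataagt
Cyr61: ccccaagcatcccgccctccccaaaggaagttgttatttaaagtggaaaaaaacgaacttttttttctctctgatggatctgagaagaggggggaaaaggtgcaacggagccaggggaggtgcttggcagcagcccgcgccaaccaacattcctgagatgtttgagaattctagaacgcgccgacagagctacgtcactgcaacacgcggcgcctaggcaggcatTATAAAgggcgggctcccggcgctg
Hspa1a: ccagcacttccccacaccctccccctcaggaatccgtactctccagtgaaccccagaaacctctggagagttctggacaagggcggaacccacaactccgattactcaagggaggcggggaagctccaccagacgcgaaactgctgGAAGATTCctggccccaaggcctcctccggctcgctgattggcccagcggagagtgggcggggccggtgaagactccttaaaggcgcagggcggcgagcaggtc
Hspa1b: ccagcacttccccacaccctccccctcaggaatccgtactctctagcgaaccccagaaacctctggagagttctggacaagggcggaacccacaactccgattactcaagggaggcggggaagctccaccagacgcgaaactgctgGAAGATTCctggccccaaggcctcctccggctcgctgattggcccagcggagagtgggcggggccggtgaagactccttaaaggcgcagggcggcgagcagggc

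The *Hspa1a* and *Hspa1b* windows were identical at 247 of 250 bases (98.8%), and the genes are copies that are near-identical over part of their transcripts, 9951 bases apart on chromosome 17. Of the 100-base windows of the *Hspa1a* transcript, 47.1% occur in *Hspa1b*, but none of those in its last 500 bases, where 3′ counting mostly reads. The assignment of a UMI to either copy remains uncertain, so both are always given.

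Promoters were found for 31 of the 36 members among 32851 RefSeq promoters, *Cyr61* under its newer name Ccn1, and *Egr1*, *Egr3*, *Ier2*, *Myc* and *Hspa8* were not matched. Windows ran from 250 bases before to 50 after the start and were searched on both strands for exact letters. A gene was counted if any of its promoters had a match, and shares are over the 27025 genes with a promoter. The heat shock element GAANNTTC occurred in 9.04% of genes and in *Fosl2*, *Jun*, *Hspa1a*, *Hspa1b* and *Hsph1*. TATAAA occurred in 15.7% of genes and in 8 of the 31 members, namely *Fos*, *Junb*, *Nr4a2*, *Nfkbia*, *Gadd45b*, *Gadd45g*, *Cyr61* and *Adamts1*. The TATAAA matches of *Junb* and *Nfkbia* and the heat shock matches of *Hsph1* lay at or after the start. The cAMP response element TGACGTCA was present in 2.03% of genes and in *Dusp1* and *Btg2*. The CArG box, the serum response factor site, was present in 1.81% and in *Egr2*, *Dusp5* and *Zfp36*. No member window held the AP-1 letters TGANTCA (8.97% of genes) or the EGR letters GCGTGGGCG (0.707%). A match describes the letters of the window and nothing else.

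Immediate early transcripts made up a larger part of the RNA of ILC2s than of any other class with more than 100 cells in both libraries. The 16 and 8 cells gated as basophils or mast cells held more, with sums of 41504 (40070 to 42976) and 43377 (41725 to 45079) CPM. Summed over the 31 genes, ILC2s held 36779.9 (36636 to 36924) and 39502 (39193 to 39813) CPM, which is 3.68% and 3.95% of all their UMIs. Neutrophils followed with 31672 and 30881 CPM, macrophages or monocytes with 23117 and 15235 CPM, NK cells or ILC1s with 18409.5 and 17815 CPM, T cells with 14766 and 14844 CPM and B cells with 13799.9 and 13066 CPM. PT cells were the lowest of these classes, at 6737 (6722 to 6752) and 6294 (6274 to 6314) CPM. The ratio of ILC2s to PT cells was 5.46-fold in the young and 6.28-fold in the old library. The part of PT transcripts in the immune sums was not tested.

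The order of the classes was different for the heat shock genes. Their 5-gene sum stood at 1784 and 1076 CPM in ILC2s, 2119 and 2018 CPM in T cells, 3892 and 2148 CPM in macrophages or monocytes and 2129 and 2777 CPM in PT cells, and neutrophils were the lowest of the 7 classes named at 830.2 and 442 CPM. Of these 7, macrophages or monocytes led in the young library and PT cells in the old one. *Hspa8*, the constitutive HSC70, supplied most of each sum, and the inducible genes *Hspa1a*, *Hspa1b*, *Hsph1* and *Dnajb1* the remainder.

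**Figure D1:**
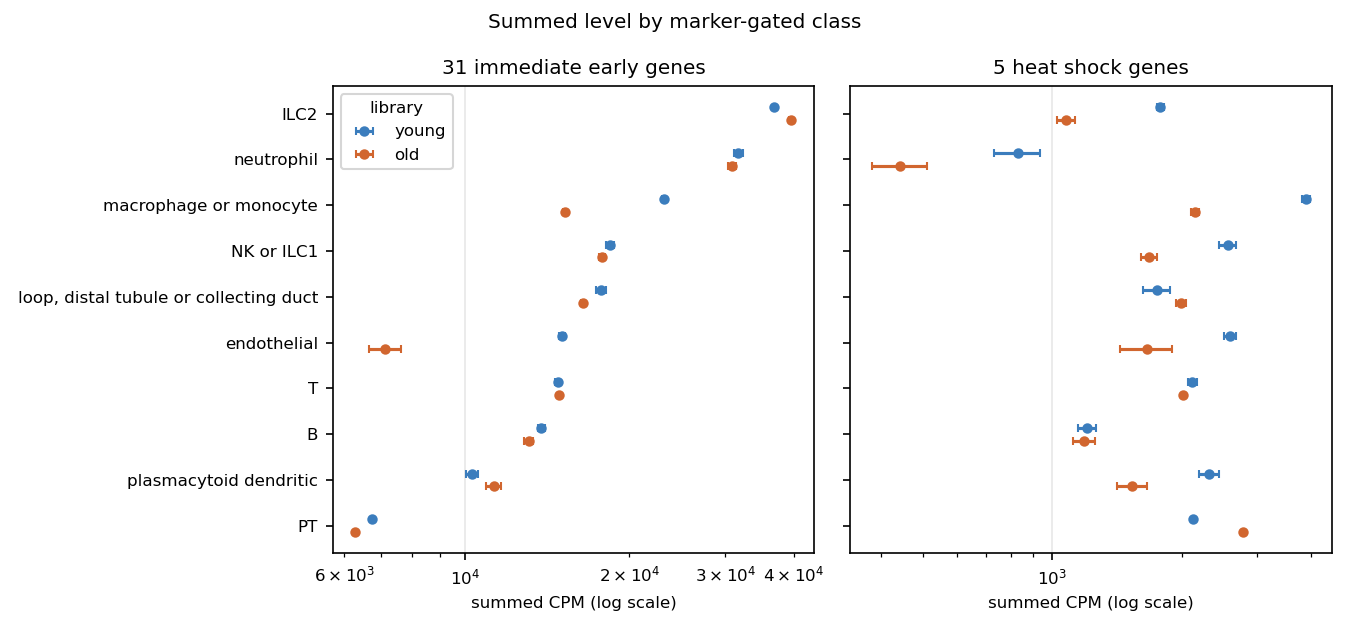
Summed CPM of the 31 immediate early genes and of the 5 heat shock genes in the gated classes shown, for the young and the old library, with exact 95% Poisson intervals that cover counting error only. Basophils or mast cells are not among the classes shown. ILC2s stood at 36779.9 and 39502 CPM for the immediate early genes and PT cells at 6737 and 6294 CPM, while the heat shock sum was highest in young macrophages or monocytes at 3892 CPM.

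Erythroid cells of the young library gave a low level to set beside the other classes. The 70 young erythroid cells, which transcribe little besides globin, held 722 CPM of immediate early transcripts in 340 UMIs and 163 CPM of heat shock transcripts, at a median of 5846 UMIs against 5153 in young ILC2s. After each cell was thinned to 1000 UMIs, 1.45% of them had a *Fos* UMI, compared with 93.2% and 92.7% among ILC2s, 56.7% and 57.1% among T cells and 33.3% and 30.3% among PT cells. Shares in these classes were above that of the young erythroid cells, of which 76.8% had no immediate early UMI after thinning. The old library held only 3 erythroid cells with 8 immediate early UMIs, so it had no such reference. The part of free RNA in any class was not tested. Without thinning, 98.00% and 100% of ILC2s had a *Fos* UMI.

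The AP-1 genes were among the most abundant members. *Fos* and *Fosb* encode partners that dimerise with the *Jun* proteins. *Fos* stood at 5719 and 5641 CPM in ILC2s, 1417 and 1166 CPM in T cells, 3077 and 1622 CPM in macrophages or monocytes and 705 and 718 CPM in PT cells. *Fosb* stood at 4585 and 4772 CPM in ILC2s, 1078 and 857 CPM in T cells, 796 and 333 CPM in macrophages or monocytes and 568 and 475 CPM in PT cells. Both were higher in ILC2s than in the other 3 classes. *Junb*, the most abundant member in ILC2s, T cells, NK cells and neutrophils in both libraries, reached 6974 and 8115 CPM in ILC2s, 2457 and 2262 CPM in T cells, 2561 and 1895 CPM in macrophages or monocytes and 216 and 231 CPM in PT cells. *Jun* departed from this pattern: PT cells held 1571 and 1263 CPM, more than T cells at 1016 and 691 CPM, and ILC2s 2810.3 and 3212 CPM. *Jund*, the least inducible of the *Jun* genes, was spread more evenly, with 2759.8 and 3230 CPM in ILC2s, 1795 and 2235 CPM in T cells, 1902 and 1013 CPM in macrophages or monocytes and 844 and 757 CPM in PT cells. *Fosl2* was a minor member, at 224 and 349 CPM in ILC2s, 75.5 and 52.8 CPM in T cells, 98.1 and 79.2 CPM in macrophages or monocytes and 9.95 and 12.2 CPM in PT cells. *Atf3*, a stress-induced repressor of the ATF family, was highest in macrophages or monocytes and neutrophils, at 1405 and 558 CPM and 952 and 631 CPM, and stood at 378 and 404 CPM in ILC2s, 63.2 and 24.2 CPM in T cells and 58.98 and 72.7 CPM in PT cells.

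Of the EGR and KLF zinc finger factors, *Egr1*, which SRF and ELK proteins induce, was highest in neutrophils at 1294 and 1897 CPM, and stood at 215 and 174 CPM in ILC2s, 222 and 156 CPM in T cells, 591 and 262 CPM in macrophages or monocytes and 74.9 and 102 CPM in PT cells. *Egr2* and *Egr3*, which follow antigen receptor signalling in lymphocytes, were close to absent from PT cells, with 0.464 and 0.49 CPM for *Egr2* and 10 and 3 UMIs in all for *Egr3*. ILC2s also held next to no *Egr2*, 15 UMIs in the young and 0 in the old library, and 12.2 and 24.04 CPM of *Egr3*. *Egr3* was highest in neutrophils and in B cells, at 51.5 and 130.1 CPM and 33.2 and 119 CPM. *Klf4* separated ILC2s, with 810.1 and 1023 CPM, from T cells, with 172 and 131 CPM, and from PT cells, with 56.1 and 39.8 CPM. *Klf6* was present in every class, from 311 and 352 CPM in PT cells to 1471 and 1594 CPM in neutrophils.

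The NR4A orphan nuclear receptors, which report on antigen receptor and cAMP signalling, were far higher in ILC2s, T cells and macrophages or monocytes than in PT cells. They were not absent from every tubule class, since cells of the loop, distal tubule or collecting duct held enough *Nr4a1* UMIs for the count between the libraries. *Nr4a1*, the gene of Nur77, stood at 382 and 383 CPM in ILC2s, 204 and 143 CPM in T cells, 668 and 839 CPM in macrophages or monocytes and 2.22 and 2.19 CPM in PT cells. It was most abundant in neutrophils and in macrophages or monocytes. *Nr4a2* was at 373 and 278 CPM in ILC2s, 203 and 478 CPM in T cells, 81.4 and 31.01 CPM in macrophages or monocytes and 0.818 and 1.26 CPM in PT cells, and *Nr4a3* at 136 and 163 CPM in ILC2s, 102 and 74.2 CPM in T cells, 27.96 and 28.3 CPM in macrophages or monocytes and 0.582 and 0.425 CPM in PT cells. In PT cells all 3 were at or below 2.22 CPM. Immune marker lists were not at 0 in PT cells. The T cell list summed to 7.33 and 17.03 CPM there, the macrophage or monocyte list to 10.58 and 10.61 CPM and the ILC2 list to 9.28 and 5.69 CPM. The part of immune transcripts in the NR4A values of PT cells was not tested.

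The IER genes encode small proteins of the rapid response. *Ier2* stood at 1261 and 1312 CPM in ILC2s, 556 and 593 CPM in T cells, 841 and 554 CPM in macrophages or monocytes and 159 and 135 CPM in PT cells. *Ier5*, which is itself a target of HSF1, stood at 533 and 663 CPM in ILC2s, 378 and 441 CPM in T cells, 787 and 371 CPM in macrophages or monocytes and 38.5 and 52.95 CPM in PT cells. *Ier3* had another distribution: it was 303 and 169.7 CPM in macrophages or monocytes and 187 and 376 CPM in neutrophils, but only 8.22 and 8.23 CPM in ILC2s, below the 33.1 and 59.7 CPM of PT cells. Among the small classes it reached 6957 and 4595 CPM in the 16 and 8 cells gated as basophils or mast cells.

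Other members encode proteins that end the response. *Dusp1*, the phosphatase of p38 and JNK, stood at 1540.1 and 1883 CPM in ILC2s, 658 and 669 CPM in T cells, 1524 and 1340.3 CPM in macrophages or monocytes and 553 and 493 CPM in PT cells. *Zfp36*, which encodes the RNA-decay protein tristetraprolin, stood at 1756 and 1598 CPM in ILC2s, 373 and 289.7 CPM in T cells, 1549 and 1117 CPM in macrophages or monocytes and 224 and 269 CPM in PT cells. *Nfkbia*, the NF-κB inhibitor and an NF-κB target, stood at 2846 and 2764 CPM in ILC2s, 935 and 910.2 CPM in T cells, 1009 and 1271 CPM in macrophages or monocytes and 62.6 and 90.3 CPM in PT cells. Each of these was higher in ILC2s than in T cells. *Dusp2*, a phosphatase of ERK in lymphocytes, stood lower in ILC2s, at 797 and 1061 CPM in T cells and 1442 and 1875 CPM in NK cells or ILC1s but 20.1 and 29.7 CPM in ILC2s. *Socs3*, the feedback inhibitor of cytokine receptors that signal through gp130, was also lower in ILC2s, with 11.5 and 20.9 CPM, than in T cells, with 51.9 and 140.3 CPM, and stood at 291 and 327 CPM in macrophages or monocytes and 1.94 and 5.21 CPM in PT cells. *Btg2*, an anti-proliferative gene that p53 also induces, stood at 3153 and 2798 CPM in neutrophils and 1089.7 and 1153 CPM in ILC2s, 741 and 910.4 CPM in T cells, 1092 and 724 CPM in macrophages or monocytes and 99.2 and 113 CPM in PT cells. *Dusp5*, a nuclear phosphatase of ERK, ranged from 18.7 and 27.2 CPM in PT cells to 441 and 539 CPM in NK cells or ILC1s.

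The growth arrest and matrix genes had unlike distributions. *Cyr61*, which encodes a secreted matrix protein and is a target of YAP and SRF, stood at 604 and 479 CPM in PT cells and at 28.2 and 17.1 CPM in ILC2s, 29.4 and 16.6 CPM in T cells and 28.9 and 6.705 CPM in macrophages or monocytes. *Adamts1*, a secreted metalloprotease, stood at 98.2 and 98.7 CPM in PT cells and at or below 4.78 CPM in ILC2s, T cells and macrophages or monocytes. *Gadd45g* was also highest in PT cells of these 4 classes, at 303 and 329 CPM, whereas *Gadd45b* had the opposite distribution, with 569.6 and 559 CPM in ILC2s, 246 and 179.6 CPM in T cells, 129 and 219 CPM in macrophages or monocytes and 3.34 and 3.399 CPM in PT cells. The Gadd45 genes encode small stress proteins that bind MAP kinase kinase kinases and cell cycle proteins. *Gadd45a* was 100.2 and 86.9 CPM in PT cells and 370 and 407 CPM in neutrophils, and *Myc*, a growth-promoting transcription factor, lay between 2.37 and 102 CPM in every one of the 7 classes named.

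**Figure D2:**
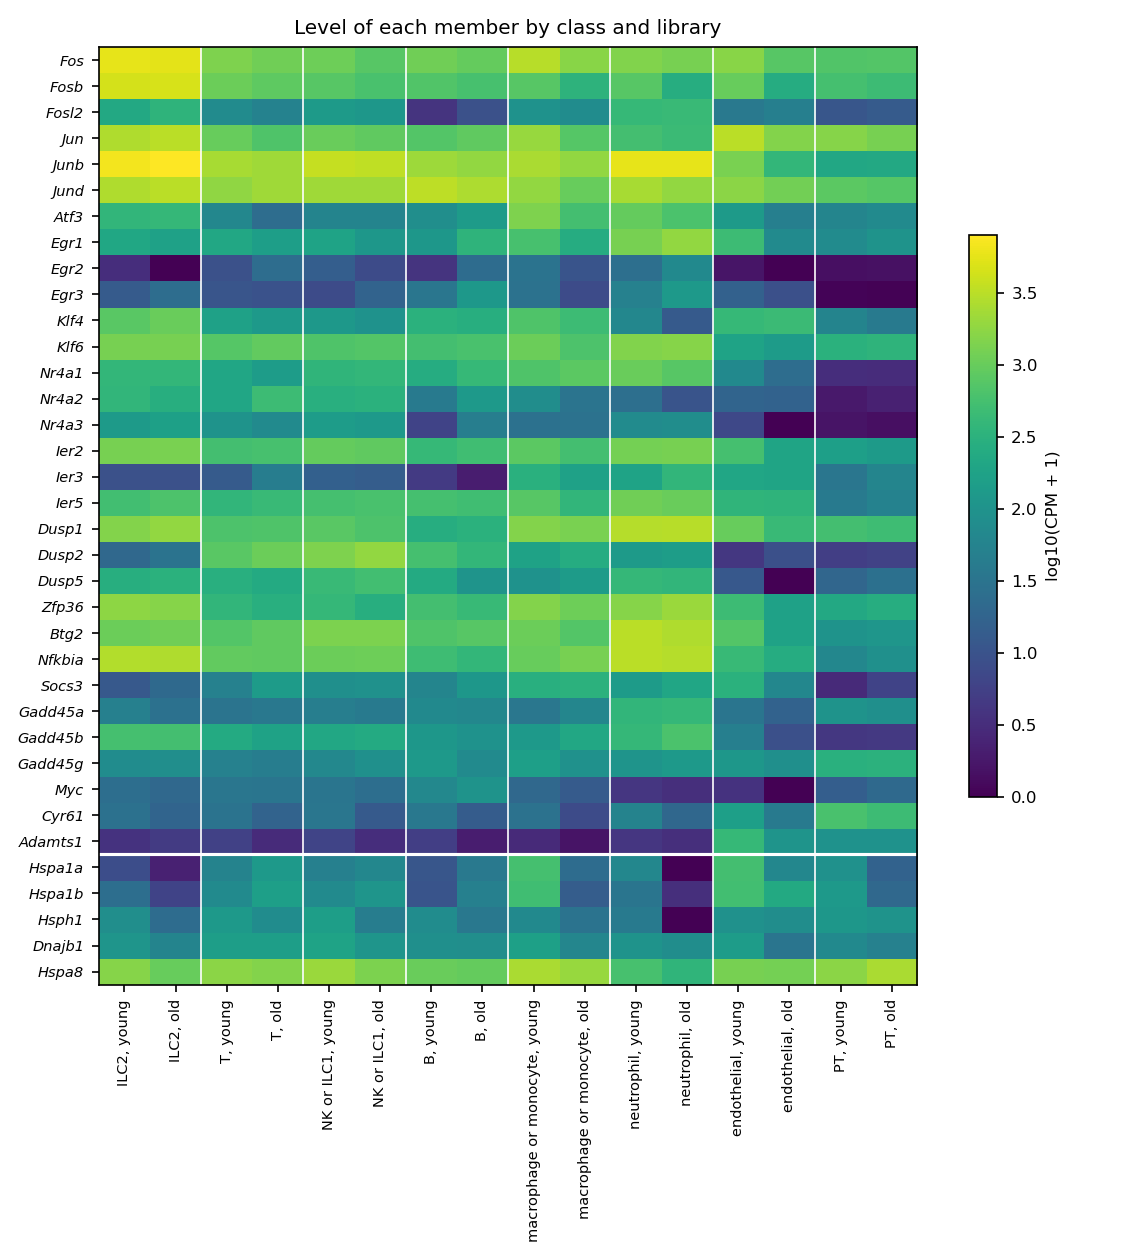
Level of each of the 36 members in each gated class and library, coloured by the log10 of CPM plus 1, with members ordered by role. *Fos*, *Fosb* and *Junb* were highest in ILC2s among the 4 main classes, the NR4A genes were near 0 in PT cells, and *Cyr61*, *Adamts1* and *Gadd45g* were highest in PT cells among the same 4 classes.

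Counted by a 2-fold difference with at least 100 UMIs over both sides, most immediate early genes were higher in immune cells than in PT cells of the same library. In ILC2s 22 of 29 members with enough UMIs were higher than in PT cells in the young library and 22 of 29 in the old, where 24.4% and 22.5% of all genes were; 5 and 5 were lower, against 32.4% and 32.6% of all genes. Over T cells against PT cells 19 of 29 and 18 of 31 were higher (all genes 23% and 28.3%) and 5 and 5 lower (all genes 32.4% and 32.1%). Over macrophages or monocytes against PT cells 23 of 30 and 20 of 29 were higher (all genes 20.1% and 20.2%) and 3 and 3 lower (all genes 32.7% and 35.7%). The members' shares were thus above the background in the higher direction and below it in the lower. The median immediate early gene stood at 2.97 and 2.59 (log2) in ILC2s over PT cells, with medians over all genes tested of -0.07 and -0.18.

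*Nr4a2*, *Nr4a3*, *Gadd45b*, *Dusp2* and *Socs3* had large ratios over PT cells. On the log2 scale, ILC2s over PT cells gave 8.83 (8.53 to 9.15) and 7.79 (7.43 to 8.15) for *Nr4a2*, and 7.87 (7.50 to 8.26) and 8.59 (8.001 to 9.23) for *Nr4a3*. *Gadd45b* gave 7.42 (7.26 to 7.57) and 7.36 (7.14 to 7.59). In T cells the ratio for *Dusp2* was 7.54 (7.39 to 7.68) and 7.75 (7.58 to 7.92), and in macrophages or monocytes that for *Socs3* was 7.23 (7.005 to 7.47) and 5.97 (5.80 to 6.15). At the other end stood genes that were higher in PT cells, although *Adamts1* and *Cyr61* also had enough UMIs for the count in endothelial cells. *Adamts1* was -5.14 (-5.87 to -4.49) and -4.70 (-6.15 to -3.58) in ILC2s over PT cells, and *Cyr61* -4.42 (-4.63 to -4.22) and -4.81 (-5.41 to -4.27). *Ier3*, *Gadd45g* and *Gadd45a* were also lower in ILC2s than in PT cells by 2-fold or more in both libraries. ILC2s held 285 and 107 CPM of the PT marker list. The part of PT transcripts in the ILC2 levels of these PT-high genes was not tested.

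Of the 5 heat shock genes, 2 and 4 were lower in ILC2s than in PT cells in the young and old library, against 32.4% and 32.6% of all genes, and none was higher. T cells had 1 and 3 higher, against 23% and 28.3%, and none lower, and macrophages or monocytes 3 and 0 higher, against 20.1% and 20.2%, and 0 and 1 lower, against 32.7% and 35.7%. With 5 genes these counts are coarse, and 2 of 5 in young ILC2s is near the background. *Hspa1a* turned from -0.79 (-1.03 to -0.57) in young T cells over young PT cells to 2.94 (2.84 to 3.05) in the old library: T cells held 54.7 and 125 CPM and PT cells 94.8 and 16.2 CPM.

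ILC2s and T cells are both lymphocytes of similar depth, with median UMIs of 5153 and 4680 in the young and 5462.5 and 4794.5 in the old library, and their immediate early sums differed by 2.49-fold and 2.66-fold. Of the immediate early genes with enough UMIs, 12 of 28 and 15 of 30 were higher in ILC2s by 2-fold or more, where 7.28% and 7.68% of all genes were. Lower were 2 and 4 of them, against 5.31% and 13.7% of all genes. Of the 5 heat shock genes 0 were higher in either library, and 2 in the young and 4 in the old library were lower. *Atf3* was 2.58 (2.36 to 2.80) and 4.06 (3.89 to 4.23) (log2), *Klf4* 2.23 (2.10 to 2.37) and 2.97 (2.88 to 3.06), and *Zfp36* 2.23 (2.14 to 2.32) and 2.46 (2.40 to 2.53). Of the AP-1 genes, *Fosb* was at 2.09 (2.04 to 2.14) and 2.48 (2.44 to 2.52) and *Fos* at 2.01 (1.97 to 2.06) and 2.27 (2.24 to 2.31), while *Jund*, at 0.62 (0.58 to 0.66) and 0.53 (0.49 to 0.57), stayed within 2-fold. On the T cell side stood *Dusp2*, at -5.31 (-5.57 to -5.06) and -5.16 (-5.60 to -4.75), and *Socs3*, at -2.18 (-2.59 to -1.78) and -2.75 (-3.29 to -2.26). *Hspa1a* and *Hspa1b* were lower in ILC2s too, at -2.90 (-3.38 to -2.43) and -1.57 (-1.87 to -1.27) in the young and -6.62 (-9.67 to -4.77) and -4.97 (-6.18 to -3.99) in the old library. PT marker sums were nearly equal in ILC2s and T cells of the same library.

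Cell by cell, the signal was near-universal in ILC2s and split in PT cells. After thinning to 1000 UMIs, the median ILC2 held 38 and 40 immediate early UMIs, the median macrophage or monocyte 22 and 16, the median T cell 13 and 15, and the median PT cell 3 and 2. At least 10 such UMIs were found in 97.5% (96.4 to 98.3%) of young and 98.6% (96.5 to 99.6%) of old ILC2s, and in 31.4% (30.2 to 32.6%) and 29.3% (27.7 to 30.9%) of PT cells. No immediate early UMI at all was found in 23.7% (22.6 to 24.9%) and 24.6% (23.1 to 26.1%) of PT cells but in 0 of 1229 and 0 of 289 thinned ILC2s, which allows shares of up to 0.3% and 1.27% (exact binomial). PT cells thus ranged from cells with none to a top 10% that held 35.3% and 39.6% of the class's immediate early UMIs, where the top 10% of ILC2s held 18.4% and 18.5%.

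**Figure D3:**
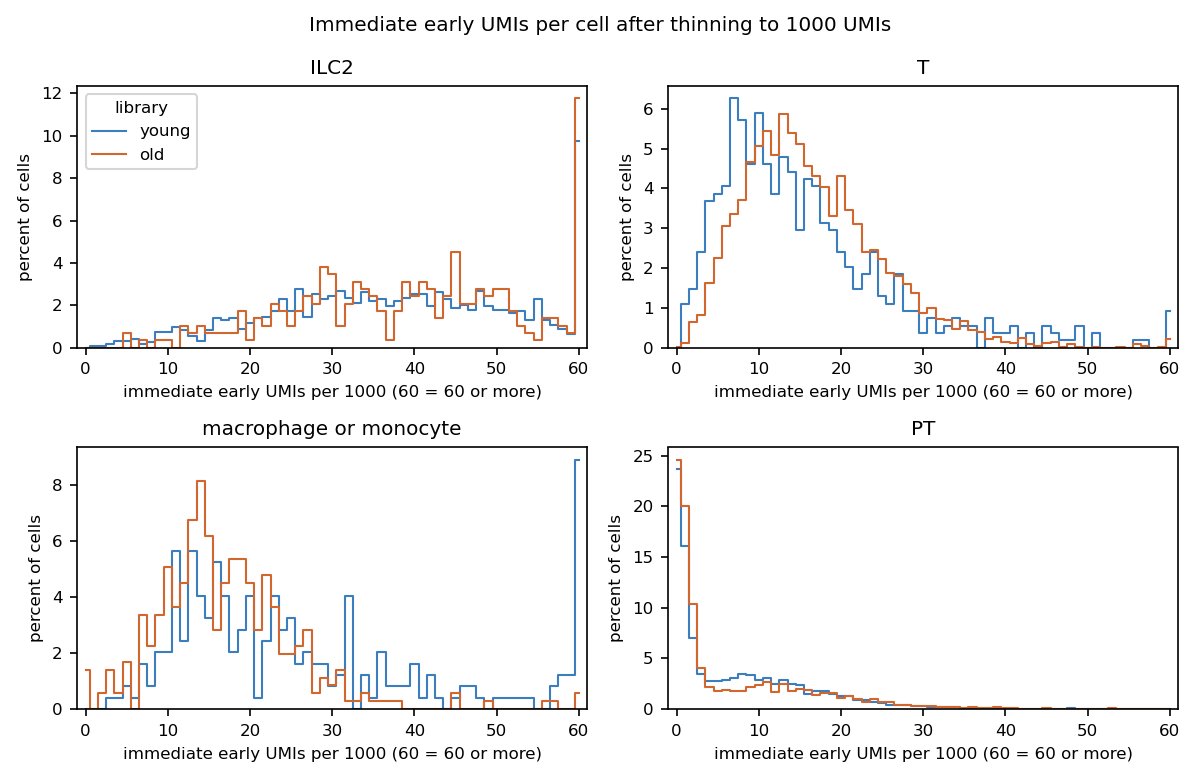
Distribution over cells of the number of immediate early UMIs after each cell was thinned to 1000 UMIs, for ILC2s, T cells, macrophages or monocytes and PT cells in both libraries, with the last step pooling all higher values. The median ILC2 held 38 and 40 UMIs, whereas 23.7% and 24.6% of PT cells had none and 31.4% and 29.3% had 10 or more.

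Members varied together within PT cells, given here as rank correlations over thinned cells of 1 library, which share depth and are not replicates. Across 5763 young and 3196 old PT cells Spearman's rho of *Fos* with *Jun* was 0.57 in young and 0.63 in old cells, that of *Fos* with *Fosb* 0.48 in young and 0.61 in old, that of *Fos* with *Dusp1* 0.46 in young and 0.57 in old and that of *Cyr61* with *Fos* 0.44 in young and 0.50 in old. Inducers and their feedback phosphatase were thus found in the same PT cells. The summed immediate early genes and the summed heat shock genes were all but unrelated in young PT cells, with rho 0.10, and inversely related in old ones, with rho -0.21. Within ILC2s, where nearly every cell was positive, *Fos* with *Jun* gave 0.33 in young and 0.35 in old cells, and *Fos* with *Areg*, the amphiregulin gene and an ILC2 effector, -0.0019 in young and 0.05 in old, while *Cd69*, a surface activation marker, gave 0.18 in young and 0.14 in old.

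Tubule subsets differed in their immediate early level. PT cells with *Slc5a12*, a transporter of the early segments, and no *Slc7a13* UMI held 8143 (8112 to 8173) and 7787 (7746 to 7829) CPM in 2007 and 1069 cells, and cells with *Slc7a13*, a transporter of the last segment, and no *Slc5a12* UMI held 4879.8 (4859.6 to 4900.1) and 4131 (4105 to 4156) CPM in 2053 and 1131 cells. For *Fos* alone the values were 956 and 959 CPM against 433 and 422 CPM. PT cells with *Xist* and no Y-linked UMI held 11974 (11913 to 12035) and 12329.8 (12257 to 12403) CPM in 737 and 523 cells, compared with 6804 (6786 to 6822) and 6117 (6093 to 6142) CPM in 3417 and 1652 cells for those with Y-linked UMIs and no *Xist*. *Hspa1a* ran the other way in this split, at 22.98 and 11.3 CPM in the *Xist* cells against 117 and 18.2 CPM in the Y-linked cells. In ILC2s the same split gave 31804 and 36857 CPM of immediate early genes in *Xist* cells and 38162 and 39837 CPM in Y-linked cells. The *Slc5a12* and *Slc7a13* split of PT cells was not crossed with the *Xist* split, so the part of either in the other was not tested.

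Mitochondrial share, a common sign of cell quality, went with the level in PT cells. In PT cells with at most 2.5% mitochondrial UMIs the immediate early sum was 3881 and 2769 CPM, in those with over 2.5 to 5% it was 7902 and 7653 CPM, in those with over 5 to 10% 8172 and 8897 CPM, and in those with over 10 to 20% 5322 and 5207 CPM. The lowest band was the lowest in both libraries, and the level was highest in the middle bands. The heat shock sum of old PT cells went the other way, from 3553 CPM in the lowest to 2061 CPM in the highest band. ILC2s held 37757 and 39926 CPM in the lowest band and 36116 and 38285 CPM in the next. The part of cell quality in the PT pattern was not tested.

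Between the ages, the immediate early level of ILC2s was nearly the same. The summed ratio of old over young was 0.10 (0.09 to 0.12) on the log2 scale, and of 28 immediate early genes with enough UMIs 0 were past 2-fold in either direction, where 1.38% of all genes were higher and 2.6% lower. *Fos* stood at 5719 CPM (5662 to 5776) in the young and 5641 CPM (5525 to 5759.7) in the old library. *Egr3* came closest to the limit, with 12.2 and 24.04 CPM and a log2 ratio of 0.98 (0.39 to 1.55). The heat shock genes differed more, with a summed ratio of -0.73 (-0.80 to -0.66). It was -0.86 among ILC2s with Y-linked and no *Xist* UMIs and -0.32 among those with *Xist* and no Y-linked UMIs. *Hsph1*, a nucleotide exchange factor of HSP70, was lower in the old library, 84.7 and 22.8 CPM with a log2 ratio of -1.89 (-2.42 to -1.41). *Hspa1b* was lower as well, 24.8 and 5.06 CPM with -2.29 (-3.53 to -1.28), although the old value rests on 8 UMIs, and *Hspa1a* had 50 young and 2 old UMIs, too few for the count. *Hspa8* gave 1561 and 989.6 CPM and -0.66 (-0.73 to -0.58). The young level of *Hspa1b* in ILC2s lies below that of PT cells (127 CPM), whose markers were also higher in young than in old ILC2s, and their part in it was not tested.

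In T cells the sums were nearly equal between the libraries, 0.01 (-0.01 to 0.02) for the immediate early and -0.07 (-0.11 to -0.03) for the heat shock genes, but single members differed. Higher in old T cells by 2-fold or more were 6 of 35 members, against 5.38% of all genes, and 1 was lower, against 3.61%. *Nr4a2* stood at 203 and 478 CPM, a log2 ratio of 1.24 (1.12 to 1.36), and was found in 14.4% and 31.7% after thinning. *Socs3* stood at 51.9 and 140.3 CPM and 1.43 (1.20 to 1.68), *Ier3* at 12.3 and 43.8 CPM and 1.83 (1.35 to 2.35), and *Egr2* at 8.199 and 23.6 CPM and 1.52 (0.93 to 2.18). Abundant AP-1 genes stayed within 2-fold, with *Fos* at -0.28 (-0.33 to -0.23), *Jun* at -0.56 (-0.61 to -0.50), *Junb* at -0.12 (-0.15 to -0.08) and *Jund* at 0.32 (0.28 to 0.36). So did other members that antigen receptors induce, with *Egr1* at -0.51 (-0.63 to -0.39), *Nr4a1* at -0.51 (-0.64 to -0.39) and *Nr4a3* at -0.46 (-0.63 to -0.27). *Atf3* was lower in the old library, 63.2 and 24.2 CPM with -1.39 (-1.63 to -1.14). *Hspa1a* was higher, at 54.7 and 125 CPM with 1.19 (0.96 to 1.43), and found after thinning in 3.499% and 7.13%. *Hspa1b* was higher too, at 73.5 and 158 CPM with 1.11 (0.91 to 1.31). It was found after thinning in 7.37% (5.31 to 9.90%) and 9.13% (8.25 to 10.07%), shares whose intervals overlap at this depth. With 3 erythroid cells, the old library gave no erythroid share to set beside these. Among T cells with Y-linked and no *Xist* UMIs, *Egr2*, *Hspa1a* and *Hspa1b* gave 0.99, 0.83 and 0.80, just under 2-fold, and under a stricter gate *Atf3* gave -0.71.

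T cell subsets carried these differences unequally. The immediate early sum was 11702 and 15630.4 CPM in *Cd4* cells, 11051 and 11790.3 CPM in Cd8 cells and 19735 and 17622 CPM in cells with neither coreceptor, the last being a population that expands in lpr mice but that also holds cells whose coreceptor UMIs were missed. Among cells with neither, *Egr2* stood at 3.33 and 52.03 CPM (4 and 376 UMIs), and in *Cd4* and Cd8 cells the log2 ratio was 0.22 (-0.81 to 1.48) and -0.77 (-1.68 to 0.27). *Nr4a2* stood at 151 and 642 CPM in cells with neither, a log2 ratio of 2.09 (1.88 to 2.31), against 0.76 (0.49 to 1.04) in *Cd4* and 0.81 (0.64 to 0.99) in Cd8 cells. *Atf3* was lower in the old library in cells with neither coreceptor, 122 and 11.3 CPM, and close to equal in Cd8 cells, 10.8 and 11.3 CPM. ILC2s held 378 and 404 CPM of *Atf3*. The ILC2 marker list summed to 609 and 374 CPM in all T cells, and its part in the *Atf3* difference was not tested. *Socs3* was higher in the old library in all 3 subsets, with log2 ratios from 1.04 in Cd8 cells to 1.44 in *Cd4* cells.

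Macrophages or monocytes were lower in the old library for both groups of genes. The immediate early sum gave -0.60 (-0.62 to -0.58) and the heat shock sum -0.86 (-0.90 to -0.82) on the log2 scale. Of 32 members 11 were lower by 2-fold or more, against 2.86% of all genes, and 0 were higher, against 4.23%. *Hspa1b* and *Hspa1a* differed most, at 515 and 13.2 CPM with -5.28 (-5.68 to -4.92) and 564 and 23.3 CPM with -4.60 (-4.89 to -4.32). *Dnajb1*, the HSP40 partner of HSP70, stood at 167 and 62.2 CPM with -1.43 (-1.66 to -1.20), and *Hsph1* at 70.6 and 29.8 CPM with -1.25 (-1.59 to -0.90). Among the immediate early genes, *Egr2* gave -1.67 (-2.27 to -1.09), *Jun* -1.44 (-1.50 to -1.37), *Nr4a2* -1.39 (-1.72 to -1.06), *Atf3* -1.33 (-1.41 to -1.26), *Fosb* -1.26 (-1.36 to -1.16) and *Egr1* -1.17 (-1.29 to -1.06). *Ier5* completed the list with -1.09 (-1.18 to -0.99), and *Fos* lay just inside the limit with -0.92 (-0.97 to -0.88). *Nr4a1* did not share the direction, at 668 and 839 CPM and 0.33 (0.24 to 0.42). Among macrophages or monocytes with *Xist* and no Y-linked UMIs only 4 members were lower by 2-fold, with *Jun* at -0.95, *Nr4a2* at -0.91, *Ier5* at -0.89, *Egr2* at -0.79, *Egr1* at -0.42 and *Dnajb1* at -0.07, and the immediate early sum was -0.39. Among those with Y-linked and no *Xist* UMIs *Atf3* and *Egr2* gave -0.98 each, and under a stricter gate *Nr4a2* gave -0.97.

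The difference in macrophages or monocytes was larger in cells with complement C1q UMIs, a mark of resident macrophages; this split was chosen after the data were seen. C1q cells held 40646 (40041 to 41258) and 12168 (11960.5 to 12378) CPM in 80 and 52 cells of immediate early transcripts, and cells without C1q 18525 (18315 to 18736) and 16128 (15999 to 16258) CPM in 170 and 307 cells. The heat shock sums were 7422 and 1850.3 CPM with and 2967 and 2235 CPM without C1q. *Jun* stood at 5685 and 797 CPM in C1q cells, and *Hspa1a* at 2079 and 13.9 CPM. Cells without C1q had 167 and 25.97 CPM of *Hspa1a*, a log2 ratio of -2.68 (-3.03 to -2.34). The C1q cells also differed in depth, with median UMIs of 4671 in the young and 15082.5 in the old library, and the part of depth was not tested. Over thinned young macrophages or monocytes, *Hspa1a* and *Hspa1b* were correlated at 0.66, and *Fos* with *Jun* at 0.53 compared with 0.18 in the old library (n = 247 and 355 cells).

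**Figure D4:**
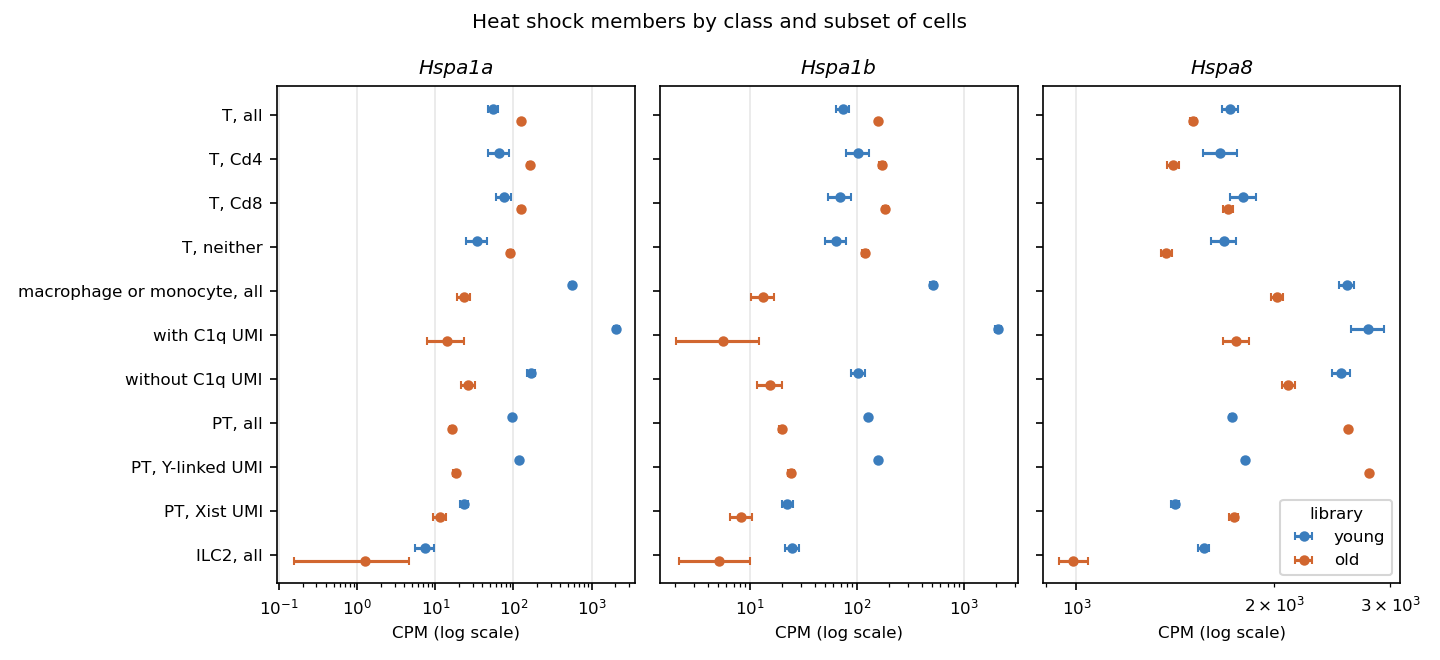
CPM of *Hspa1a*, *Hspa1b* and *Hspa8* in T cells, macrophages or monocytes and PT cells with their subsets and in ILC2s, young and old library, on a log scale with exact 95% Poisson intervals for counting error only. Young C1q cells reached 2079 CPM of *Hspa1a* against 13.9 CPM in old C1q cells, and the old library was higher for *Hspa1a* and *Hspa1b* in T cells with *Cd4*, with *Cd8a* or *Cd8b1* and with neither.

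PT cells showed little difference between the libraries in the immediate early sum, -0.10 (-0.10 to -0.09), and a higher heat shock sum in the old library, 0.38 (0.37 to 0.39). Higher by 2-fold or more was 1 of 33 members, against 2.81% of all genes, and 2 were lower, against 2.22%. *Socs3* was the higher one, at 1.94 and 5.21 CPM with 1.43 (1.17 to 1.69), a level below the immune classes. *Hspa1a* and *Hspa1b* were the lower ones, 94.8 and 16.2 CPM with -2.55 (-2.64 to -2.45) and 127 and 19.7 CPM with -2.68 (-2.77 to -2.60). *Hspa8*, by contrast, was higher, at 1721 and 2588 CPM and 0.59 (0.58 to 0.60), and accounts for the direction of the sum. *Cyr61* gave -0.33 (-0.35 to -0.31) and *Fos* 0.03 (0.01 to 0.04). In PT cells with *Xist* and no Y-linked UMIs the immediate early sum gave 0.04 and *Socs3* 0.89.

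PT cells with *Havcr1*, the gene of the injury marker KIM-1, stood apart, in a split that was also chosen after the data were seen. Their immediate early sum was 3861 (3816 to 3906) and 9378 (9282 to 9474) CPM in 205 and 147 cells, while PT cells without *Havcr1* held 6945 and 6082 CPM. *Atf3* stood at 45.4 and 265 CPM in these cells, *Ier3* at 24.6 and 178 CPM and *Fos* at 345 and 1045 CPM, with log2 ratios of 2.55 (2.37 to 2.73), 2.85 (2.62 to 3.10) and 1.60 (1.53 to 1.67). Without *Havcr1* the ratio for *Atf3* was -0.01 (-0.07 to 0.05) and that for *Fos* -0.07 (-0.09 to -0.05). The median UMIs of *Havcr1* cells were 36001 and 25945, deeper than PT cells at large.

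Among the smaller classes, B cells had 3 of 28 members higher and 2 lower in the old library, where 2.52% and 2.52% of all genes were. *Egr3* gave 33.2 and 119 CPM with 1.84 (1.33 to 2.37), *Nr4a2* 38.9 and 129 CPM with 1.73 (1.26 to 2.22), and *Egr1* 118 and 351 CPM with 1.58 (1.30 to 1.86). *Nr4a1* gave 0.65 (0.44 to 0.86) and *Fos* -0.24 (-0.35 to -0.12), both within 2-fold, and *Egr2* and *Nr4a3* had too few UMIs for the count. *Dusp5* and *Hsph1* were lower, with -1.20 (-1.53 to -0.87) and -1.15 (-1.75 to -0.58). Neutrophils had 1 of 23 higher, *Ier3* at 187 and 376 CPM with 1.01 (0.57 to 1.47), and 1 lower, *Fosb* at 792 and 269.6 CPM with -1.55 (-1.89 to -1.23), against 3.78% and 7.06% of all genes. In NK cells or ILC1s 0 of 29 were higher (0.678% of all genes) and 1 lower (2%), *Hsph1* at 154 and 44.6 CPM with -1.78 (-2.26 to -1.32). *Hsph1* was thus lower in the old library in ILC2s, NK cells or ILC1s, B cells and macrophages or monocytes. Plasmacytoid dendritic cells held 10299 and 11278 CPM of immediate early transcripts, and cells of the loop, distal tubule or collecting duct 17749 and 16456 CPM. In the latter, 4 of 28 members were higher in the old library, against 5.82% of all genes, and 0 lower, against 1.68%. They were *Adamts1* at 2.15 (1.25 to 3.23), *Gadd45a* at 1.36 (0.88 to 1.88), *Nr4a1* at 1.20 (0.79 to 1.63) and *Socs3* at 1.04 (0.66 to 1.45), over 34 and 126 cells.

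Endothelial cells held 15069.5 and 7135 CPM of immediate early transcripts in 276 and 18 cells. Of 26 members 17 were lower in the old library by 2-fold or more, against 7.68% of all genes, and 0 higher, against 2.38%. The 10 with the lowest ratios were *Hspa1a* at -3.09 (-4.30 to -2.10), *Egr1* at -2.73 (-3.87 to -1.80), *Socs3*, *Dnajb1*, *Btg2*, *Cyr61*, *Adamts1*, *Fosb*, *Junb* and *Ier2*, the last at -1.57 (-2.22 to -0.98). *Jun*, with 3201 and 1543 CPM, was the most abundant of those lower, at -1.05 (-1.27 to -0.84). The old values rest on few cells, with 8 UMIs for *Hspa1a* and 9 for *Egr1*.

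**Figure D5:**
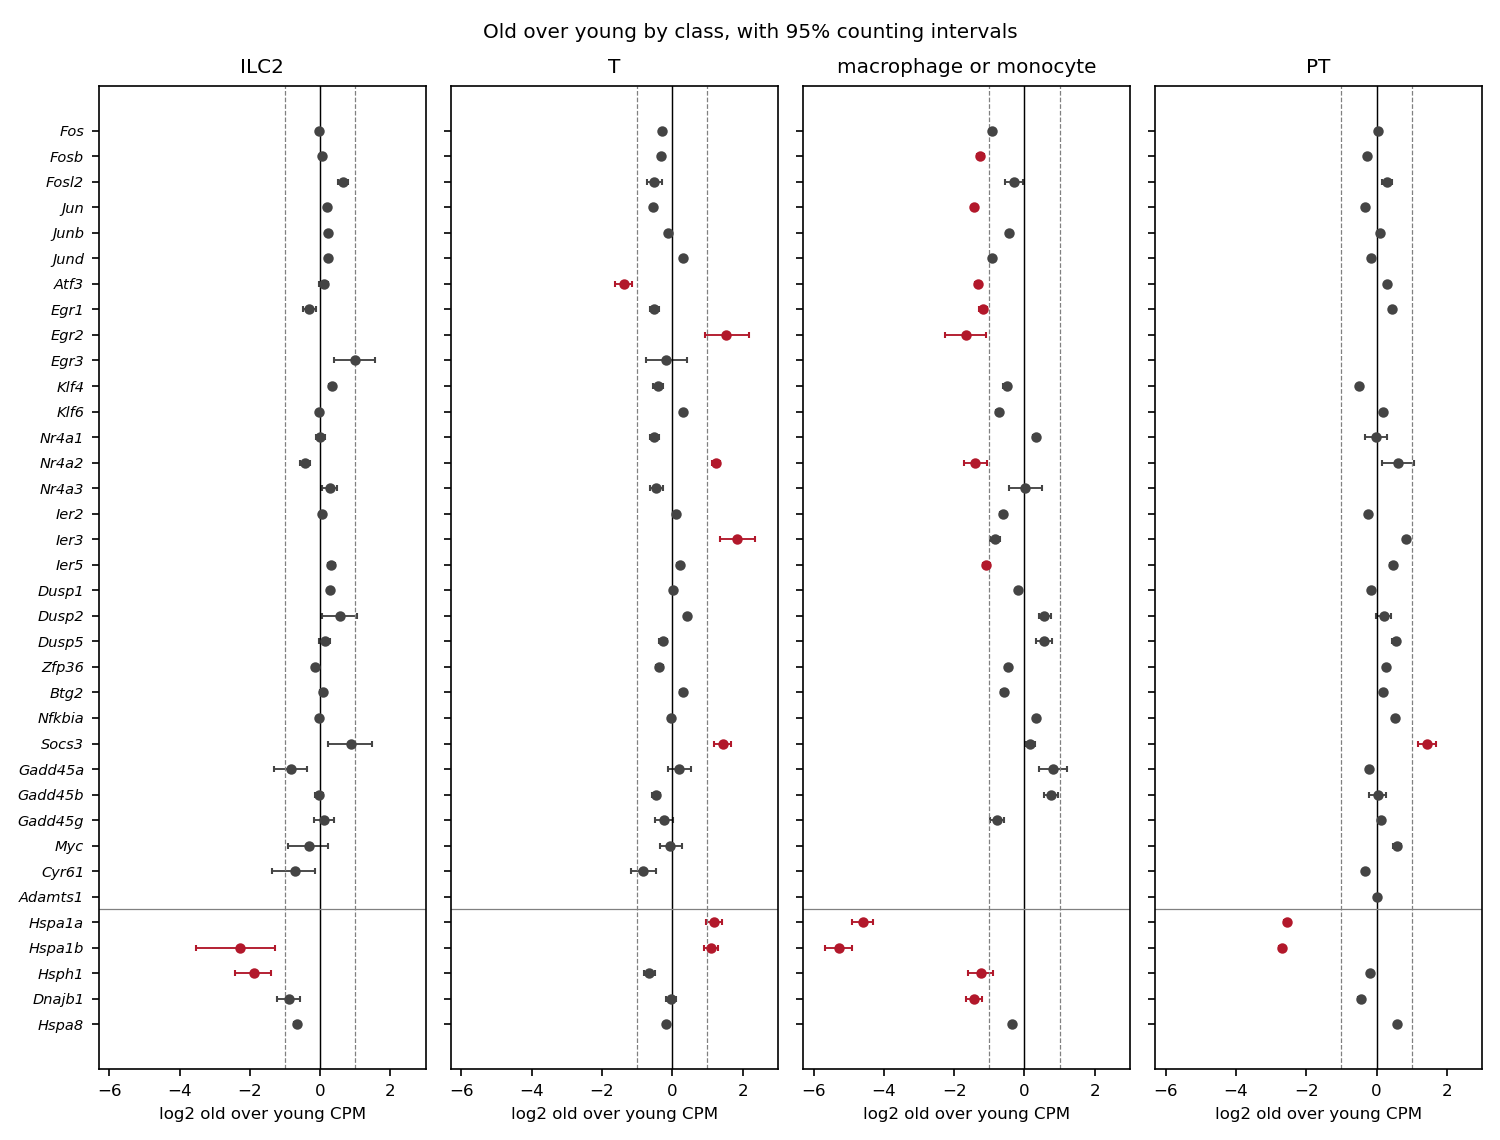
Log2 ratio of CPM, old over young, for members in ILC2s, T cells, macrophages or monocytes and PT cells where at least 100 UMIs were summed, with exact 95% intervals for counting error only. Dashed lines mark 2-fold and red points lie past it. In ILC2s the immediate early genes lay within 2-fold, in T cells *Ier3*, *Egr2*, *Socs3* and *Nr4a2* lay above it, and *Hspa1a* and *Hspa1b* reached -4.60 and -5.28 in macrophages or monocytes.

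Other genes of the same pathways were read from lists of further immediate early genes, chaperones, upstream regulators, unfolded protein response genes and effector genes. Of 17 other chaperone genes tested in ILC2s, 2 had a ratio above 0 and 1, *Hspa4l*, was lower by 2-fold, at -1.02 (-1.79 to -0.33), against 2.6% of all genes. Their median was -0.58 against -0.05 for all genes. NK cells or ILC1s showed a like median of -0.61, while T cells, macrophages or monocytes and PT cells gave -0.21, -0.15 and -0.03. In T cells 4 of 20 were higher, against 5.38% of all genes. Of these, *Hspb1* and *Cryab*, small heat shock genes, had 0 young UMIs and 110 and 127 old UMIs, which against a floor of 3 young counts over the class is at least 4.74-fold and at least 5.47-fold higher, and *Bag3*, an HSP70 co-chaperone, was higher at 1.07 (0.48 to 1.71). *Hspa4l*, an HSP110 relative, was higher at 1.05 (0.79 to 1.33). *Hspb1* and *Cryab* were scarce in old T cells, in which PT markers summed to 117 CPM, and the part of PT transcripts in their counts was not tested. Of 22 in PT cells, where 2.81% of all genes were higher and 2.22% lower, *Hspb8* and *Hspb1* were higher, at 5.11 (3.84 to 6.76) and 3.05 (2.79 to 3.33), and *Cryab* and the collagen chaperone *Serpinh1* lower, at -1.34 (-1.51 to -1.18) and -1.18 (-1.24 to -1.11).

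Of the further immediate early genes, 1 of 35 was higher in old ILC2s, namely *Crem*, a cAMP-responsive factor, at 1.06 (0.77 to 1.34), against 1.38% of all genes, and 0 were lower. T cells had 2 of 40 higher, *Jdp2* at 1.79 (1.38 to 2.23) and *Plk2* at 1.40 (0.92 to 1.92), a share near the 5.38% of all genes. Of 36 tested in macrophages or monocytes, where 2.86% of all genes were lower and 4.23% higher, *Batf3* and *Rgs2* were lower, at -1.79 (-2.12 to -1.47) and -1.11 (-1.19 to -1.03), and *Bhlhe40* higher, at 1.18 (0.99 to 1.39). Of 37 tested in PT cells, where 2.81% of all genes were higher and 2.22% lower, *Socs1*, *Nfkbiz* and *Maff* were higher, at 2.83 (2.41 to 3.28), 1.51 (1.44 to 1.58) and 1.45 (1.31 to 1.59), and *Rgs2* and *Klf2*, the latter a flow-responsive factor of endothelium and lymphocytes, lower at -1.45 (-1.76 to -1.15) and -1.27 (-1.36 to -1.19).

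Of the regulators upstream of the members, 18 were tested in T cells, 15 in macrophages or monocytes and 17 in PT cells, and 0 were past 2-fold. Of all genes, 5.38%, 4.23% and 2.81% were higher in these 3 classes and 3.61%, 2.86% and 2.22% lower. In ILC2s 1 of 17 was lower, *Hsf2*, at -1.05 (-1.87 to -0.33), against 2.6% of all genes, and 0 were higher, against 1.38%. Counts this small do not set the regulators apart from all genes. Of the unfolded protein response genes, 11 were tested in each of the 4 classes. *Ddit3* was lower in old ILC2s, at -1.10 (-1.76 to -0.50), and *Dnajb9* in old macrophages or monocytes, at -1.01 (-1.34 to -0.68). Each was 1 of 11, against 2.6% and 2.86% of all genes, and 0 were past 2-fold in T or PT cells. Of the effector genes of activated lymphocytes, 0 were higher by 2-fold in these 4 classes. Of all genes 1.38% were higher in ILC2s, 5.38% in T cells, 4.23% in macrophages or monocytes and 2.81% in PT cells. Lower were 1 of 7 in ILC2s (2.6% of all genes), 1 of 9 in T cells (3.61%), 2 of 5 in macrophages or monocytes (2.86%) and 1 of 6 in PT cells (2.22%), and 5 of the 9 in T cells had a ratio above 0. The lower genes were *Il2* in ILC2s, at -2.04 (-2.69 to -1.44), *Csf2* in T cells, at -2.39 (-2.92 to -1.86), the chemokine genes *Ccl3* and *Ccl4* in macrophages or monocytes, at -1.59 (-1.68 to -1.51) and -1.31 (-1.36 to -1.25), and *Areg* in PT cells, at -1.51 (-1.98 to -1.06), a gene with 2.27 and 0.801 CPM there. The ILC2 marker list summed to 9.28 and 5.69 CPM in PT cells. The part of ILC2 transcripts in the *Areg* values of PT cells was not tested.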

How the data were processed

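Per the methods and the submitters' processing notes, the authors ran Cell Ranger 3 with the mm10 genome to obtain UMI counts; the deposited values are raw UMI counts per gene and barcode, with no other columns. The 36 members, the marker and pathway lists and the thresholds were chosen with earlier results of these data known.

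A barcode was kept if it had 200 or more genes and no more than 20% of its UMIs from mitochondrial genes. Classes came from marker gates (2 distinct markers, 4 for PT, 3 for macrophages or monocytes, neutrophils and endothelium), with minimums set after marker detection was seen. Doublets called by Scrublet (328 young, 246 old) were kept, and barcodes that passed no gate or several entered no class. UMIs were summed per class and library and given as CPM with exact Poisson intervals, and ratios with exact binomial intervals (95%). A gene was called past 2-fold with at least 100 UMIs over both sides. Shares of cells used cells thinned to 1000 UMIs (seed 7), leaving out shallower cells. A floor was 3 counts.

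Members past 2-fold (up to 10 a direction) or among the 3 highest of a class are described with values, and up to 4 genes a direction of the other lists. Alternatives were a mitochondrial limit of 10%, a minimum of 500 genes, no doublets, a stricter gate, another CPM total, equal weight per cell, cells split by *Xist* and Y-linked UMIs, T cell coreceptors and 2000 UMIs or no thinning. Splits by C1q, *Havcr1* and *Slc5a12* or *Slc7a13* were added after the data were seen. The ratio step was tested on simulated data. Python 3.11.15, numpy 2.4.6, pandas 2.3.3, scipy 1.17.1 and scanpy 1.11.5 were used.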

Additional observations from a re-analysis of the deposited data

Results flagged for a closer look

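Members were singled out where a 2-fold or larger difference between the libraries had opposite directions in different classes. The difference between classes itself was not tested. *Egr2*, old over young on the log2 scale, was 1.52 in T cells and -1.67 in macrophages or monocytes, and *Nr4a2* was 1.24 and -1.39. *Hspa1a* was 1.19 in T cells, -4.60 in macrophages or monocytes and -2.55 in PT cells. *Hspa1b* was 1.11 in T cells, -2.29 in ILC2s, -5.28 in macrophages or monocytes and -2.68 in PT cells.

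Barcodes outside the comparisons carried both groups of transcripts. The 2576 young and 1111 old barcodes removed for over 20% mitochondrial UMIs held 4808 and 6149 CPM of immediate early and 889.9 and 1133 CPM of heat shock transcripts. Of the UMIs that were not mitochondrial, the immediate early CPM was 8560 (8482 to 8638) and 10177 (10065 to 10289.7) in removed and 10356 (10339 to 10373) and 10591 (10572 to 10610) in kept barcodes. The 620 and 744 kept barcodes with markers of more than 1 class held 13234 and 10646 CPM of immediate early and 2107 and 2253 CPM of heat shock transcripts. The 1853 and 891 kept barcodes without enough markers of any class held 15820.4 and 12501 CPM and 1997 and 2283 CPM.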

How the results depend on the processing

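Of 250 recomputed sums, counts and shares, 181 kept their value within the main interval or within 1.5-fold for counts, and 69 moved. A change of sign was counted only for ratios past 2-fold. No main sum was past it, so none could be counted here. Small sums did change sign among cells with *Xist* and no Y-linked UMIs. The immediate early sum went from -0.098 to 0.042 in PT cells and from 0.0075 to -0.11 in T cells. The heat shock sum of T cells went from -0.070 to 0.24. Values below are log2 ratios of summed CPM, old over young, unless another quantity is named.

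Restricting to cells with Y-linked and no *Xist* UMIs gave immediate early sums of 0.062 in ILC2s, -0.54 in macrophages or monocytes and -0.15 in PT cells and heat shock sums of -0.86 in ILC2s and -0.73 in macrophages or monocytes. It gave 3 higher and 2 lower members in T cells and 2 higher in PT cells. Cells with *Xist* and no Y-linked UMIs gave immediate early sums of 0.21 in ILC2s, -0.11 in T cells, -0.39 in macrophages or monocytes and 0.042 in PT cells, with heat shock sums of -0.32, 0.24, -0.55 and 0.24 in the same order. They had 1 lower member in ILC2s, 2 lower in T cells, 1 higher and 4 lower in macrophages or monocytes and 0 higher in PT cells. In the same cells 12 members were higher in young T than in young PT cells, and 7 lower in old macrophages or monocytes than in old PT cells.

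A stricter gate gave immediate early sums of 0.17 in T cells, -0.71 in macrophages or monocytes and -0.090 in PT cells, a heat shock sum of -0.97 in macrophages or monocytes, 1 higher member in ILC2s and 0 lower in T cells. Giving each cell equal weight gave immediate early sums of 0.077 in ILC2s, 0.040 in T cells and -0.70 in macrophages or monocytes, heat shock sums of -0.11 in T cells, -1.23 in macrophages or monocytes and 0.33 in PT cells, and 2 higher members in macrophages or monocytes. With *Malat1* and the mitochondrial, hemoglobin and ribosomal protein genes out of the total, the immediate early sums were -0.017 in T cells, -0.67 in macrophages or monocytes and -0.11 in PT cells and the heat shock sums -0.92 in macrophages or monocytes and 0.37 in PT cells. Without doublets the immediate early sums were 0.023 in T cells and -0.088 in PT cells, with 2 higher members in PT cells. At most 10% mitochondrial UMIs gave -0.11 in PT cells.

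By coreceptor the immediate early sums were 0.42 in *Cd4*, 0.093 in Cd8 and -0.16 in coreceptor-negative T cells, and the heat shock sums 0.0079 in Cd8 and -0.18 in coreceptor-negative cells. Splits chosen after the data were seen gave immediate early and heat shock sums of -1.74 and -2.004 with C1q, -0.20 and -0.41 without it, 1.28 and 0.52 with *Havcr1*, -0.19 and 0.37 without it, -0.064 and 0.23 with *Slc5a12* alone, and -0.24 and 0.55 with *Slc7a13* alone.

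Unthinned, the share of cells with a *Fos* UMI in young and old ILC2s was 98.00% and 100%, and with 2000 UMIs a cell 96.9% and 98.6%. For *Hspa1b* in T cells it was 13.9% and 18.8% unthinned and 13.01% in old cells with 2000 UMIs. Of 184 values for the named members, 170 stayed past 2-fold in the same direction. The other 14 are given with their classes above, and the cause was not tested.

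No paired analysis was possible because each age had 1 library. Intervals cover counting error, so differences between the libraries hold for these libraries and not for the ages. Depth limits the scarce members: *Egr3* in PT cells and *Egr2* in ILC2s rest on 15 UMIs or fewer, and a class total of 3 UMIs is the least a level could be set against.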
